A study of Rattus norvegicus with 2 samples.

Results

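Endothelial genes whose expression or activity depends on the shear stress of flowing blood were followed in rat intracranial aneurysms: Klf2, Klf4, Nos3, Thbd, Edn1, Gja4, Gja5, Piezo1, Cav1 and P2rx4. They were taken as a fixed list, chosen with earlier results of these data known. Each was found on the array through the RefSeq accession of its probes. All 10 had a probe, among 11897 genes with a probe well above background on at least 1 of the arrays. The study hybridised 2 one-colour Agilent arrays with total RNA from rat tissue. The aneurysm array held RNA of an intracranial aneurysm lesion 3 weeks after induction, and the control array held RNA of intracranial arterial walls of untreated rats. The labels name no strain, age, sex or way of induction, and do not say how many animals gave each RNA. With 1 array per group there was no replicate check and no test, and every difference below compares these arrays, not the conditions at large.

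The endothelium lines every artery and senses the drag of the blood stream on its surface. Under steady laminar flow, signalling through MEK5, ERK5 and MEF2 factors induces the transcription factors Klf2 and Klf4, which raise Nos3 and Thbd and hold down Edn1. Intracranial aneurysms form at bifurcations and bends, where the wall meets high and disturbed flow.

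The values are spot intensities that the scanner software had already corrected for background, called processed signals here and given in arbitrary units. Differences are aneurysm minus control on the log2 scale, after each array was divided by its 75th percentile, which was 801 on the aneurysm array and 621 on the control array. A probe with a scaled difference of 0 thus reads 1.29-fold brighter in raw processed signal on the aneurysm array. The value after ± is the spot error, taken from the spread of repeat spots of probes of like brightness within each array, and it holds no variation between animals. The share of spots well above background was 76.4% on the aneurysm array and 74.7% on the control array, and no spot was saturated.

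All 10 genes read higher in the aneurysm after scaling, while 50.1% of all measured genes did; Edn1 read lower under the normexp background corrections and with outlier spots kept. Their median difference was 0.57, against 0.0009 for all measured genes. Gja5 alone was at least 2-fold higher, where 0.883% of all genes were, and none of the 10 was at least 2-fold lower, where 3.91% of all genes were. Of all genes at least 2-fold apart, 18.4% were higher in the aneurysm, a share that was 6.99% and 6.76% under the normexp corrections, 28.9% under quantile normalization and 47.7% under scaling on spike-in controls. Klf2, Klf4, Gja5 and Piezo1 were at least 1.5-fold higher, 4 of 10, where 4.25% of all genes were, and none was at least 1.5-fold lower, where 8.43% of all genes were. Klf4 and Piezo1 lay just inside that limit at 1.54-fold each, and P2rx4 at 1.495-fold and Nos3 at 1.48-fold just outside it. Among the 9 genes with several spots, 8 had every aneurysm spot above every control spot after scaling, which held for 35.1% of the 9129 genes with several spots. The 11 probes of the 10 genes covered 37 spots on each array, all of them well above background. The differences of 8 genes were over 2 spot errors from 0, and those of Edn1 and Cav1 were not. The share of all genes past that limit is not given here, so the count has no background to be read against.

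**Figure D1:**
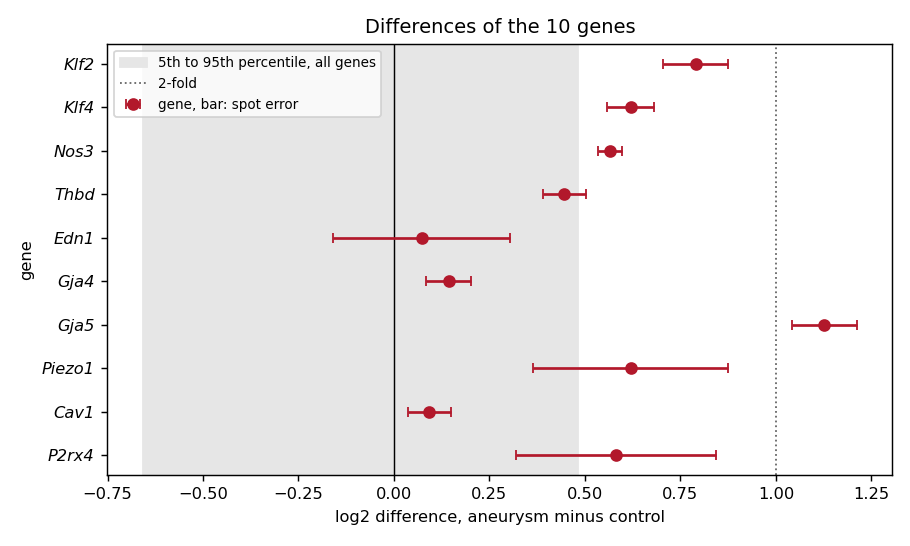
Log2 difference (aneurysm minus control, x axis) of each of the 10 genes, 1 per row, with its spot error as a bar, the 5th to 95th percentile of all genes on both arrays as shading and 2-fold as a dotted line. Gja5 lies farthest right at 1.13, while Edn1, Cav1 and Gja4 lie between 0.07 and 0.14.

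Klf2 and Klf4 are zinc finger transcription factors that keep the endothelium in a quiescent, anticoagulant state. The Klf2 probe (A_44_P472661, gene on chromosome 16) had processed signals of 717 and 715 on the aneurysm array, against 334 and 308 on the control array. Its scaled difference was 0.79 ± 0.08, or 1.73-fold higher, and 1.8% of all measured genes had a difference as high. The Klf4 probe (A_43_P12908, chromosome 5) had 1603 and 1833 in the aneurysm, against 876 and 852 in the control. The spots did not overlap between arrays for either gene. Klf4 was 0.62 ± 0.06 higher, or 1.54-fold, with 3.63% of genes as high. Klf2 minus Klf4 came to 0.17 ± 0.10, under 2 spot errors, so their differences could not be told apart at this precision.

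The other Kruppel-like factors were closer to 0. Leaving Klf2 and Klf4 out, 9 of 11 measured members of the family read higher and 2 lower, with a median of 0.15 and none 1.5-fold apart. Klf5, a factor of proliferating smooth muscle, came next at 0.36 ± 0.04, although another of its probes gave −0.03. Klf1, the erythroid factor, stood at −0.29 ± 0.52, within its spot error, Klf16 at −0.25 ± 0.06 and Klf11 at 0.09. In the list of the ERK5 and MEF2 axis with the cerebral cavernous malformation complex, 9 of 11 measured genes read higher and 2 lower. Their median was 0.15, or 0.08 and 0.03 under the normexp corrections, and none was 1.5-fold apart. The list mixes genes that drive the route to Klf2 and Klf4 with genes that restrain it, so these counts give no direction for the route. Map2k5, which encodes MEK5, was at 0.44 ± 0.09, and Ccm2, a scaffold that restrains MEKK3, at 0.32 ± 0.04. Prkaa1, a catalytic subunit of AMP kinase, had 0.30 ± 0.26. At the low end were Map3k3, which encodes MEKK3, with −0.17 ± 0.07 (0.21 by another probe), Mef2d with −0.05 and Rasip1 with 0.07. Mapk7 and Mef2c were not analysed here.

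**Figure D2:**
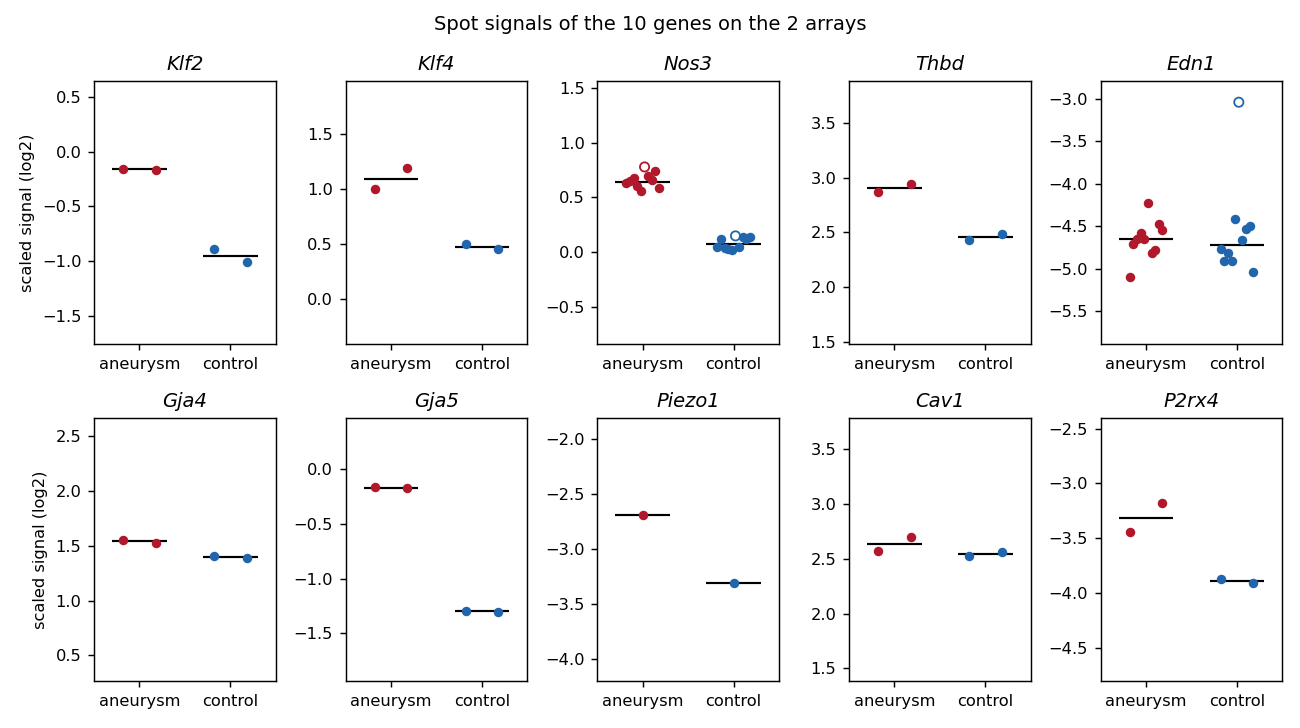
Scaled log2 signal (y axis) of every spot of the 10 genes, aneurysm spots left of control spots, with the mean of the spots used as a black line and spots with an outlier flag as open circles. The arrays separate in every panel with several spots except that of Edn1.

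Nos3 encodes the endothelial nitric oxide synthase, which relaxes the vessel and restrains platelets, and its probe (A_44_P198620, chromosome 4) was printed 10 times on each array. The 9 aneurysm spots used ranged from 1178 over a median of 1259 to 1335, against a range from 629 over 643 to 682 in the 9 control spots. Every aneurysm spot exceeded the control spot at the same position, by 0.45 to 0.65 after scaling. The difference was 0.57 ± 0.03, or 1.48-fold, the smallest spot error among the 10 genes, and 4.57% of all genes had a difference as high.

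Edn1 encodes the precursor of the vasoconstrictor endothelin, which Klf2 represses. Its probe (A_44_P334736, chromosome 17), also printed 10 times, was dim on both arrays. The 10 aneurysm spots ran from 23.3 over a median of 31.9 to 42.8, against 18.8 over 22.8 to 29.1 in the 9 control spots used. The scaled signals overlapped, with 5 positions higher and 5 lower in the aneurysm. The difference was 0.07 ± 0.23, or 1.05-fold, and 39.7% of genes had a difference as high. A further control spot at 75.5 carried the scanner software's outlier flag and was left out. Without that position on either array the difference was 0.03, and the normexp corrections gave −0.18 and −0.23. Nos3 minus Edn1 came to 0.49 ± 0.23, with 0.26 under quantile normalization and 0.76 under normexp on the median signals.

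Thbd encodes thrombomodulin, the endothelial receptor that turns thrombin toward activating protein C. The brighter of its probes (A_43_P15023, chromosome 3) had 5848 and 6146 in the aneurysm, against 3345 and 3476 in the control, a difference of 0.45 ± 0.06 or 1.36-fold. The dimmer probe (A_64_P033610) had 174 and 167 in the aneurysm, against 93.5 and 90.7 in the control, or 0.52 ± 0.16. Both probes separated the arrays and agreed within their spot errors. Nos3 minus Thbd was 0.120 ± 0.065, under 2 spot errors, so the differences of Nos3 and Thbd could not be told apart at this precision.

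The genes around these effectors did not share a direction. In the nitric oxide pathway without Nos3, 8 of 19 measured genes read higher and 11 lower, with a median of −0.02. The median of all 20 with Nos3, also −0.02, turned positive under several alternatives (0.28 at most, with scaling on spike-in controls). Gch1, which makes the synthase cofactor tetrahydrobiopterin, was at 0.66 ± 0.26, and Akt1, a kinase that activates the synthase, at 0.53 ± 0.04. Arg1, the arginase that competes with the synthase for arginine, was far lower at −2.29 ± 0.07. Ddah1, which clears an endogenous synthase inhibitor, was at −0.63 ± 0.07 and Qdpr, which recycles tetrahydrobiopterin, at −0.30 ± 0.06. The subunits of the nitric oxide receptor guanylyl cyclase stood at −0.10 ± 0.09 (Gucy1a1) and 0.25 ± 0.11 (Gucy1b1, −0.27 by another probe). Arg1 is also a liver gene, and hepatocyte transcripts differed strongly between these arrays (values given with the cell type markers).

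Of the thrombomodulin and protein C system without Thbd, 7 of 10 measured genes read higher and 3 lower, with a median of 0.23, and 4 were at least 1.5-fold higher and 2 at least 1.5-fold lower. Procr, the endothelial protein C receptor, was at 0.84 ± 0.26. F3, the tissue factor that starts coagulation, was at 0.72 ± 0.06. F2, the liver-made prothrombin, was at −5.30 ± 0.24, and the thrombin receptor gene F2r at −0.31 ± 0.39. Entpd1 stood at 0.11, and Cpb2 was well above background in the control alone, which gives a bound of −1.44. In the endothelin system without Edn1, 4 of 6 measured genes read higher and 2 lower, none 1.5-fold apart. Ednra, the receptor that contracts smooth muscle, had 0.25 ± 0.12 (−0.01 by another probe), and Ednrb, the endothelial receptor, had −0.07 ± 0.09. The converting enzyme gene Ece1 had −0.09 ± 0.09 and its relative Ece2 had 0.42 ± 0.49. Edn3 had 0.12 ± 0.07 and Mme, a peptidase that degrades endothelin, had 0.03. The median of the 7 endothelin genes, 0.07, became −0.09 and −0.13 under the normexp background corrections.

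**Figure D3:**
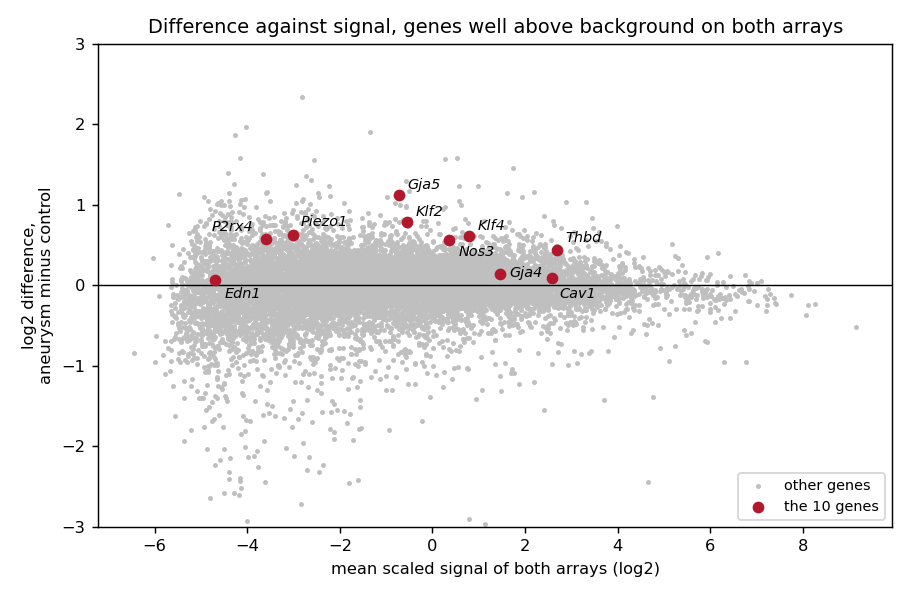
Log2 difference (aneurysm minus control, y axis, shown from −3 to 3) against mean log2 scaled signal (x axis) for the 11196 genes well above background on both arrays as grey points, 44 of them beyond the axis, with the 10 genes in red and named. Gja5 and Klf2 lie above most genes of like signal, while Edn1 lies among the dim genes, which spread widely.

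Gja4 and Gja5 encode connexins, which form the gap junctions that couple endothelial cells of arteries. The Gja5 probe (A_64_P147373, chromosome 2) had 715 and 710 on the aneurysm array, against 254 and 252 on the control array. The repeat spots lay within a few units of each other and far apart between arrays. Its difference of 1.13 ± 0.08, or 2.18-fold, was the highest of the 10 genes, and 65 of all measured genes, 0.546%, had a difference as high. The Gja4 probe (A_42_P767077, chromosome 5) had 2355 and 2304 in the aneurysm, against 1643 and 1625 in the control. Its spots also did not overlap after scaling, but the difference was only 0.14 ± 0.06, or 1.104-fold, and 30.4% of genes had one as high. Gja5 minus Gja4 came to 0.98 ± 0.10 and stayed between 0.72 and 0.98 under all alternatives of processing, the widest gap among the 5 pairs of genes compared. Only quantile normalization, loess centring and the normexp corrections could change this gap. Scaling by a constant cancels in it, and the remaining alternatives left both genes as they were.

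Among the other 10 measured connexins, 5 read higher and 5 lower, with a median of 0.04, none at least 1.5-fold higher and 2 at least 1.5-fold lower. Gja1, the main connexin of smooth muscle and fibroblasts, was at 0.13 ± 0.03, Gjc1 at 0.39 ± 0.26 and Gjb5 at 0.24 ± 0.49. Gjb1 was at −0.66 ± 0.42. The 12 connexins together had a median of 0.13, which became −0.06 under normexp on the median signals. In the arterial identity and Notch list, which holds Gja4 and Gja5, 9 of the other 15 measured genes read higher and 6 lower. The median of all 17, 0.11, became −0.03 and −0.05 under the normexp corrections. Eng, the endothelial receptor endoglin, was at 0.99 ± 0.08 and Notch4, the endothelial Notch receptor, at 0.39 ± 0.04. Hes1, a Notch target, was well above background in the aneurysm alone, with a bound of 1.04. Dll4, the arterial Notch ligand, was at −0.28 ± 0.27, Cxcr4 at −0.22 ± 0.16 and Efnb2, the arterial ephrin ligand, at −0.17 ± 0.19.

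The sequences before the annotated starts of the connexin genes and of Nos3 and Edn1 are shown because Gja5 and Gja4 are related genes with different readouts, and Nos3 and Edn1 are effectors that Klf2 drives in opposite directions. They are the 250 bases upstream of each start in RefSeq on GRCr8, 5′ to 3′ on the gene's strand: Gja5 at chr2:187290977-187291226 (plus strand), Gja4 at chr5:144920325-144920574 (minus), Nos3 at chr4:11706582-11706831 (minus) and Edn1 at chr17:22666688-22666937 (minus). Capitals mark matches, on either strand, to the CACCC box that Kruppel-like factors can bind (CACCC), to an AP-1 variant (TGACTAA) and to a GATA site (AGATAA). In Edn1 the longest of its capital runs joins a CACCC box and the AP-1 variant, which overlap.
Gja5: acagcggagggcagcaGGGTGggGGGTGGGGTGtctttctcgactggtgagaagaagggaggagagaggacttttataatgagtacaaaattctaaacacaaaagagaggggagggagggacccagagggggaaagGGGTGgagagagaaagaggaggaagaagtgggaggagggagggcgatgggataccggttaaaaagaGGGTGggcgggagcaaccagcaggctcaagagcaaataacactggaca
Gja4: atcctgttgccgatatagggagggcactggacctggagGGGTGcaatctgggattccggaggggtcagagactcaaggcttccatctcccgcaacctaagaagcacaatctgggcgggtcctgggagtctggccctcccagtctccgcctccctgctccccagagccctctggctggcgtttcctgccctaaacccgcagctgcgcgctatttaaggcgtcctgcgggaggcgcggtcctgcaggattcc
Nos3: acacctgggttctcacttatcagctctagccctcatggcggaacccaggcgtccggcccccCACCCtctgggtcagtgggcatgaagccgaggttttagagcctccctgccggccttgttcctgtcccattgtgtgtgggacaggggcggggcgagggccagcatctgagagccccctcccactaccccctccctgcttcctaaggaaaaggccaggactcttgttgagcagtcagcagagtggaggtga
Edn1: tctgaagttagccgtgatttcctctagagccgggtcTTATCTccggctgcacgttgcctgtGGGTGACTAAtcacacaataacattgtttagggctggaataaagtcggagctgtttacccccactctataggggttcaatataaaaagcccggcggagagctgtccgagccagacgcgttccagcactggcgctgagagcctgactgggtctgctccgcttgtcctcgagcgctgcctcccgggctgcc

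The Gja5 window held 5 CACCC boxes, and those of Gja4, Nos3 and Edn1 held 1 each. How many of all rat windows held several boxes was not counted, so these numbers have no background. Windows were at hand for 7 of the 10 genes, 8 windows in all since Cav1 has a pair of starts. Klf2, Thbd and Piezo1 had no window, so the counts below do not cover them. A CACCC box was in 7 of the 8 windows, against 49.2% of all 33469 rat windows. The window without one was that of Klf4. The shear stress response element GAGACC was in 0 of the 8 windows and in 13.7% of all windows, and the MEF2 site in 0 of the 8 and in 2.96% of all. The AP-1 variant was in 1 of the 8 (1.99% of all) and the GATA site in 2 of the 8, Klf4 and Edn1 (10.3% of all). Base composition differed between the printed windows, from 54.8% G and C in Gja5 to 63.2% in Gja4. These are letter matches in short windows, and no binding was measured.

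Piezo1, P2rx4 and Cav1 act at the cell surface, where flow is sensed. Piezo1 encodes a cation channel opened by membrane tension, and its probe (A_44_P499309, chromosome 19) had a single spot, with 124 in the aneurysm, against 62.4 in the control. The difference was 0.62 ± 0.26, or 1.54-fold, with 3.61% of genes as high. P2rx4 encodes an ATP-gated calcium channel through which endothelial cells answer flow, and its probe (A_44_P484909, chromosome 12) had 73.6 and 88.7 in the aneurysm, against 42.4 and 41.3 in the control. The spots did not overlap, and the difference was 0.58 ± 0.26, or 1.495-fold, with 4.33% of genes as high. Both genes were dim, and the normexp corrections reduced Piezo1 to 0.30 and 0.33 and P2rx4 to 0.18 and 0.11.

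Cav1 encodes the coat protein of caveolae, membrane pits that hold and inhibit the nitric oxide synthase. Its probe (A_64_P005754, chromosome 4) had 4747 and 5197 in the aneurysm, against 3564 and 3653 in the control. The spots did not overlap after scaling, but the difference of 0.09 ± 0.06, or 1.07-fold, was within 2 spot errors, and 37.1% of genes had one as high. Nos3 minus Cav1 came to 0.47 ± 0.06. The rest of the caveola list stayed as close to 0, with 6 of 9 measured genes higher, 3 lower, none 1.5-fold apart and a median of 0.01. The median of all 10 caveola genes, 0.04, became −0.01 when the percentile was taken over spots well above background. Cav2 was at 0.004 ± 0.06, Cavin1, which shapes the coat, at −0.13 ± 0.09 and Cavin2 at −0.09. Cav3, the muscle caveolin, had 0.20 ± 0.19, Ehd2 0.16 ± 0.07 and Pacsin2 −0.10.

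Among the mechanosensitive channels and flow sensors other than Piezo1, 10 of 14 measured genes read higher and 4 lower, with a median of 0.17, and 2 were at least 1.5-fold higher. Itgb1, an integrin subunit that anchors cells to matrix, was at 0.61 ± 0.06 (0.37 by another probe), Pecam1, the junction protein of the endothelial flow sensor, at 0.33 ± 0.06, and the calcium channel gene Trpv4 at 0.28 ± 0.07. The integrin gene Itgb3 was well above background in the aneurysm alone, with a bound of 0.71. Gnaq was at −0.38 ± 0.17, Cdh5, the endothelial cadherin, at −0.24 ± 0.09 and Flt4 at −0.08 (−0.62 by another probe). Piezo2 was not analysed here. Among the purinergic receptors and ectonucleotidases other than P2rx4, 12 of 16 measured genes read higher and 4 lower, with a median of 0.26. The median of all 17, 0.28, was 0.06 and 0.01 under the normexp corrections. P2ry1, an ADP receptor of platelets and endothelium, was at 0.91 ± 0.17, and P2rx1, an ATP channel of smooth muscle, at 0.76 ± 0.11 (0.47 by another probe). P2ry12, a marker of microglia, was at −0.39 ± 0.06, P2ry13 at −0.17 and P2rx6 at −0.05. P2rx5 was well above background in the control alone, with a bound of −1.26.

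**Figure D4:**
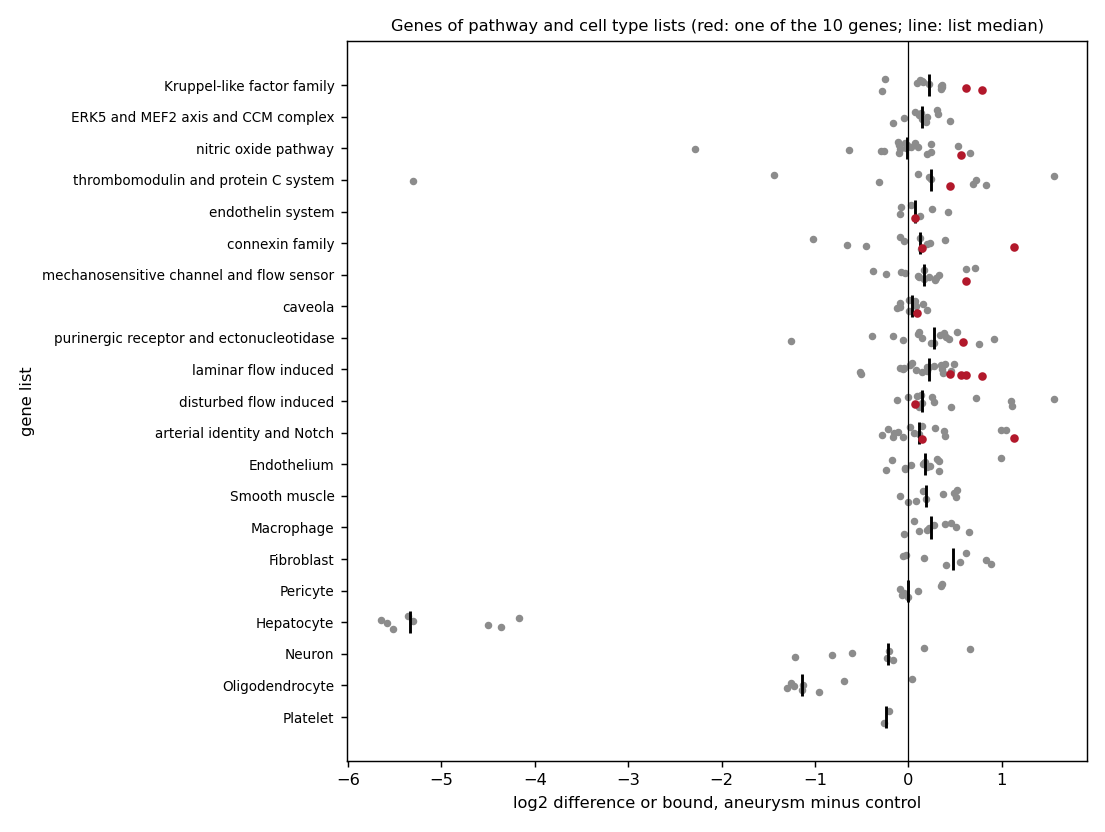
Log2 difference (aneurysm minus control, x axis) or bound of every measured gene of each pathway and cell type list, 1 list per row, with the 10 genes in red and the list's median as a line. The hepatocyte and oligodendrocyte markers lie far to the left with medians of −5.34 and −1.13, and most other lists centre between −0.3 and 0.5.

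Known targets of laminar and of disturbed flow both leaned to higher values, as did most marker lists of the wall. Endothelial, smooth muscle, macrophage and fibroblast markers had medians of 0.17, 0.18, 0.24 and 0.48, and pericyte markers −0.005. Of all measured genes, 50.1% read higher and 4.25% were at least 1.5-fold higher. Without the members, 14 of 19 measured genes that laminar flow induces read higher and 5 lower, with a median of 0.19 and none 1.5-fold apart. Behind Klf2, Klf4 and Nos3 at its top, its low end held the prostaglandin D synthase gene Ptgds at −0.52, the water channel gene Aqp1 at −0.51 and Cyp1b1 at −0.09. Of the genes that disturbed flow induces, other than Edn1, 12 of 14 read higher and 2 lower, with a median of 0.20, and 4 were at least 1.5-fold higher. The monocyte chemokine gene Ccl2 was at 1.11 ± 0.08 and the matrix protein gene Ccn2 at 1.099 ± 0.03. Egr1, an immediate early factor, was at −0.001 and Ankrd1 at −0.12 ± 0.49. Sele, Selp and Il6 had no probe well above background.

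The arrays hold RNA of whole tissue, so more cells of a type and more RNA per cell cannot be told apart. Of the 20 endothelial markers, 14 were measured, and 10 of them read higher and 4 lower, with a median of 0.17 and a summed scaled signal of 23.9 in the aneurysm and 21.8 in the control. Eng was highest and Cdh5 lowest, and Sox17 was not well above background. Vwf, Egfl7, Robo4, Mmrn2 and Ptprb were not analysed here. Relative to that endothelial median, Gja5 was 0.95 higher, Klf2 0.62, Klf4 0.45, Piezo1 0.45, P2rx4 0.41, Nos3 0.39 and Thbd 0.27. Gja4 at −0.03, Cav1 at −0.08 and Edn1 at −0.10 then lay slightly below 0, so 7 of the 10 genes lay above the endothelial median. The share of all measured genes above that median was not counted. As a guide, the 75th percentile of the differences was 0.1804 among genes that passed the background filter on each array, close to the endothelial median of 0.1726. The comparison with the endothelial median uses endothelial markers alone, and which cells gave the RNA of the 10 genes was not measured. Other wall lists had medians of 0.18 (smooth muscle), 0.24 (macrophage), 0.48 (fibroblast) and −0.005 (pericyte).

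**Figure D5:**
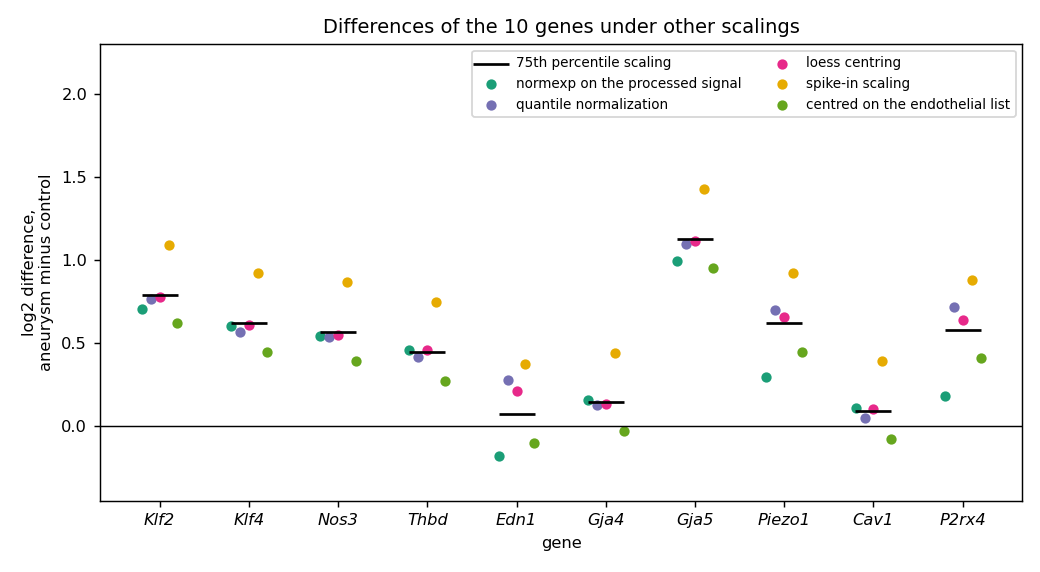
Log2 difference (aneurysm minus control, y axis) of each of the 10 genes (x axis) as reported (black line) and under 5 alternatives of processing (coloured points). Spike-in scaling puts Gja5 at 1.43 and Klf2 at 1.09, while centring on the endothelial list puts Edn1, Cav1 and Gja4 below 0.

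Markers of other cell types of the wall and its surroundings also differed between the arrays. Smooth muscle markers read higher in 7 of 9 (median 0.18, summed scaled signal 150 in the aneurysm and 128 in the control, from Actg2 at 0.52 to Smtn at −0.09). Macrophage markers read higher in 9 of 10 (0.24, 52.5 and 45.7, from Cd163 at 0.65 to Cd68 at −0.05), and fibroblast markers in 6 of 8 (0.48, 202 and 186, from Lum at 0.88 to Col1a2 at −0.06). Pericyte markers read higher in 3 of 7 (−0.005, or 0.03 and 0.29 under median and spike-in scaling, 17.7 and 15.4, from Cspg4 at 0.36 to Notch3 at −0.09). Most measured markers of tissue outside the wall were lower in the aneurysm. All 8 measured hepatocyte markers were at least 2-fold lower (median −5.34, summed scaled signal 0.60 in the aneurysm and 23.7 in the control, from Serpina1 at −4.17 to Ambp at −5.65), with Cps1 and Tat not above background. Of the 8 oligodendrocyte markers, 7 were lower and 5 at least 2-fold lower (−1.13, 86.3 and 169, from Cldn11 at 0.04 to Mobp at −1.30). Neuron markers were lower in 6 of 8 (−0.22, 4.66 and 6.34, from Gad1 at 0.17 to Tubb3 at −1.22, with Slc17a7 well above background in the aneurysm alone and a bound of 0.66), and both measured platelet markers, Gp9 at −0.21 and Pf4 at −0.27, were lower (0.58 and 0.69); the medians of both lists turned positive, to 0.08 and 0.06, under spike-in scaling. The part of these tissue differences in the values of the 10 genes was not tested.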

How the data were processed

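Each array held Cy3-labelled total RNA of 1 sample, aneurysm or control, grouped by the label of its tissue. The deposited files are scanner output of Agilent Feature Extraction 10.10.1.1 (probe design on rn4), per the file headers: the authors' processed signal is a spot intensity with background subtracted, not normalized between arrays. Spots without a control type and without an outlier flag were divided by their array's 75th percentile, put on the log2 scale and averaged per probe (Python 3.11.15, pandas 2.3.3), and 17998 of 30367 probes took a gene name from the RefSeq table of GRCr8 by accession. Where a gene had several probes, the brightest over both arrays stood for it, and a gene counted as measured if a probe of it stood well above background in either sample. A gene measured on 1 array only has a bound, taken against the other array's own probe signal or the lowest signal well above background there, whichever was higher. The spot error pools repeat spots over 20 bins of signal. The calculation was tested on data simulated from the control array, with the same spot spread for all probes and the control's flags on both arrays. That test covered neither the wider spread of dim probes nor the bounds.

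With 1 array per group no test was possible, so counts past 1.5-fold and 2-fold stand in for calls. The precision is limited by the number of arrays. The 10 genes, the 21 gene lists and the alternatives were chosen with earlier results of these data known. All members and their probes were named, per pathway list the 3 highest and 3 lowest genes on both arrays, genes at least 2-fold apart and fixed partners, and per cell type list the highest and lowest gene; a few genes this rule picks are not reported here. Genes alike in pattern were not named, since the arrays give 1 difference per gene. Alternatives changed the scaling, background correction (limma 3.58.1 normexp, offset 50), filter, spot summary and probe. The mean signal was not among the columns used here, so normexp ran on the processed signal, and a version on the median signal with local background was added after the data were seen. The number of columns of other samples was 0.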

Additional observations from a re-analysis of the deposited data

How the results depend on the processing

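The alternatives changed the background correction, the scaling, the filter on dim probes, the summary over spots and probes, and the threshold. The members' median of 0.57 became 0.38 with normexp on the processed signal, 0.39 with normexp on the median signal (chosen after seeing the data), 0.87 with spike-in scaling and 0.40 with centring on the endothelial list. The count of members at least 1.5-fold higher was 4 as reported (4.25% of all genes). It was 2 with the percentile over spots well above background (3.34%), 7 with spike-in scaling (16.5%) and 2 with endothelial centring. The count at least 2-fold higher was 1 as reported (0.883% of all genes). It was 0 with either normexp (16 of 11569 and 14 of 11551 genes), 2 with spike-in scaling (305 of 11952 genes) and 0 with endothelial centring. The share of all genes under endothelial centring was not computed. Spike-in scaling moved the median of all genes to 0.30, and relative to it the members' median was 0.57. Among single results, Gja4 and Cav1 turned to −0.0296 and −0.0797 with endothelial centring, the arterial and Notch list to −0.0259 and −0.0506 with the normexp corrections, and the neuron and platelet lists to 0.0816 and 0.0628 with spike-in scaling. Klf2, Klf4, Nos3, Thbd, Gja5, Piezo1 and P2rx4 were higher under all alternatives run, from 0.62 to 1.09 for Klf2, 0.45 to 0.92 for Klf4, 0.39 to 0.87 for Nos3, 0.27 to 0.75 for Thbd, 0.92 to 1.43 for Gja5, 0.30 to 0.92 for Piezo1 and 0.11 to 0.88 for P2rx4, while Edn1 ran from −0.23 to 0.37 and kept its sign in 10 of 14. Not every alternative could move every gene. The filters on dim probes, kept outlier spots and the summaries over spots and probes left Klf2, Klf4, Gja5, Piezo1 and P2rx4 unchanged. Of all genes, 105 were at least 2-fold higher as reported, against 16 and 14 with the normexp corrections, 165 with quantile normalization, 305 with spike-in scaling, 51 with the filter on both arrays, 183 with no filter and 2 at 4-fold. At least 2-fold lower were 465, against 213 and 193 with normexp, 237 with the filter on both arrays, 755 with no filter and 178 at 4-fold. At least 1.5-fold higher were 506, against 114 and 93 with normexp, 1967 with spike-in scaling and 336 with the filter on both arrays, and at least 1.5-fold lower were 1003, against 562 and 552 with normexp, 562 with spike-in scaling and 1619 with no filter. The 4-fold count differs by its construction and the filters change the number of genes counted; for the other alternatives the cause was not tested. Dim probes (Edn1, P2rx4, Piezo1) depend most on the background correction, and a single array per group leaves out all variation between animals. No paired analysis was possible because each group has 1 array.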

Other observations

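Several genes outside the 10, chosen here after their values were seen, belong to programmes that Klf2 and Nrf2 control under laminar flow. Hmox1, the heme-degrading enzyme heme oxygenase, stood at 0.46 ± 0.05 (log2, aneurysm minus control, ± spot error), and Nfe2l2, which encodes Nrf2, at 0.36 ± 0.06. Dusp1, a phosphatase that shuts off stress kinases, was at 0.49 ± 0.16, Ptgis, the prostacyclin synthase, at 0.37 ± 0.06, and the vasodilator peptide gene Adm at 0.35 ± 0.03. Other antioxidant genes of the same list were closer to 0, with Srxn1 at 0.09 ± 0.09, Nqo1 at 0.15 ± 0.09, Sod1 at −0.06 ± 0.05 and Sod3 at −0.05 ± 0.05. Txnrd1, a thioredoxin reductase gene, gave 0.20 ± 0.16 by its brighter probe and −0.33 by another, and Ptgds and Aqp1 of that list were lower, at −0.52 ± 0.05 and −0.51 ± 0.03. Of the adhesion molecules that disturbed flow induces, Vcam1 was at 0.46 ± 0.03 and Icam1 at 0.11 ± 0.03.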
